A study of Mus musculus with 12 samples.

Results

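Genes that fold, import and monitor secreted proteins in the endoplasmic reticulum (ER) were followed through 6 populations of mouse prostate cells. The cells were sorted as luminal, but some populations also held much basal or endothelial marker RNA, as given below. The genes were taken from a list of 46 mouse symbols, each matched to its Ensembl identifier, out of 48795 gene identifiers in the count table. A filter on low counts left 15270 genes for testing, and 45 of the 46 listed genes passed it. The exception was Kdelr3, one of the receptors that return escaped ER proteins, which had 226 counts in all and 18.4 CPM (counts scaled by effective library size) in LY6D- SCA1int replicate 2 but at most 0.389 elsewhere.

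Proteins that enter the secretory pathway pass into the ER through the Sec61 channel, lose their signal peptide to signal peptidase, and fold with the help of chaperones such as BiP (encoded by Hspa5), lectin chaperones and disulfide isomerases. When unfolded proteins build up, the sensors IRE1 (Ern1), ATF6 and PERK start the unfolded protein response, in which XBP1, ATF6 and ATF4 raise chaperones and the machinery that sends misfolded proteins back to the cytosol for degradation. Luminal cells of the prostate secrete large amounts of protein into the seminal fluid, so they carry much of this machinery.

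The mice were wild-type C57BL/6, 6 to 8 weeks old, and the cells were negative for CD31, CD45 and Ter119, proteins of endothelium, leukocytes and red cells. They were separated by flow cytometry on surface LY6D, present (LY6D+) or absent (LY6D-), and on SCA1, which Ly6a encodes: SCA1high, SCA1int (intermediate) or SCA1low. Each of the 6 combinations had 2 libraries, made from 10 to 20 ng of total RNA with a kit that reads 1 tag near the 3' end of each transcript. The labels do not say whether the 2 replicates of a population came from separate animals or pools. Every p-value here therefore reflects only how far these libraries spread, which may be technical. In such bulk samples, fewer cells of a type and less RNA per cell cannot be told apart.

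Total counts ran from 8436185 to 20022077 per library, and the listed genes held 0.526% to 1.73% of them. Only 2 of the 12 libraries correlated best (across genes) with their own replicate. LY6D- SCA1low replicate 2 correlated best with a library from the other end of SCA1, LY6D- SCA1high replicate 1 (0.729), and less with its pair (0.676). LY6D+ SCA1high replicate 1 had a wider gap (0.731 with LY6D+ SCA1int replicate 1, against 0.658). LY6D+ SCA1high replicate 2 had the lowest total and the fewest genes with at least 10 counts (7512). It and LY6D- SCA1low replicate 2 are called doubted here, a choice made after seeing the data, and counts are also given without them. Ly6a, which encodes SCA1, was at 181 to 593 CPM in SCA1high, 44.9 to 148 in SCA1int and 3.37 to 68.8 in SCA1low libraries. It followed the labels within each LY6D state, but LY6D- SCA1low replicate 2 (68.8) lay above both LY6D+ SCA1int libraries. Ly6d was at 37.0 to 397 CPM in LY6D+ and 0.433 to 3.85 in LY6D- libraries. The luminal keratin genes Krt18 and Krt8 were present in every library, at 108 to 502 and 66.4 to 276 CPM. Basal markers (8 genes, among them Krt5 and Krt14) summed to 2529 to 4965 CPM in LY6D+ and 235 to 2088 CPM in LY6D- libraries. In LY6D+ SCA1high libraries Krt5 (359 and 608 CPM) and Krt14 (539 and 679) exceeded Krt8 (131 and 120) and Krt18 (145 and 161). The same held in LY6D+ SCA1int libraries (Krt5 318 and 284, Krt14 373 and 324, Krt8 85.2 and 66.4, Krt18 130 and 128). In LY6D+ SCA1low libraries Krt5 (186 and 460) and Krt14 (161 and 193) exceeded Krt8 (98.7 and 133), and Krt18 was at 502 and 313. In LY6D- SCA1low libraries Krt5 and Krt14 were at 3.29 to 4.16 CPM, below both luminal keratins.

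The clearest difference ran with SCA1. Averaged over both LY6D states, 13 of the 45 tested ER genes were lower in SCA1high than in SCA1low cells and 0 were higher. That is 28.9% of them, where 0.779% of all 15270 genes were called lower (119) and 0.432% higher (66). Called means an adjusted p under 0.05 by the quasi-likelihood test of edgeR, adjusted by Benjamini-Hochberg across the 15270 genes. The 13 were 5 chaperone genes (Calr, Hsp90b1, Hspa5, Sdf2l1 and Hyou1), 5 isomerase genes (Pdia3, Pdia4, Pdia6, Fkbp2 and Fkbp11) and 3 genes of the import channel and its partners (Sec61a1, Sec61g and Ssr4). Of all 45, 41 (91.1%) had a negative log2 fold change, against 46.4% of all genes, and their median was -1.25 against 0.15. The list was chosen with earlier results of these data known. Its excess over all genes, here and below, is therefore no independent result. At an unadjusted p under 0.05 there were 21, and DESeq2 called 16. Among calls, shares of all genes were taken for the main edgeR fit only. Counts by unadjusted p, DESeq2 or another alternative stand here and below without such a share. Without both doubted libraries 14 were called, 12 of them shared with the 13: Hyou1 was lost and P4hb and Creld2 gained.

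Summed over all 46 genes, the level was 20179.5 ± 4126 CPM (mean ± SD, n = 2 libraries) in LY6D- SCA1low cells, 10119.6 ± 694 in LY6D- SCA1int and 5749.9 ± 6.25 in LY6D- SCA1high. LY6D+ cells stood at 9830.5 ± 329, 5272 ± 856 and 5455 ± 63.1 CPM in the same order. Both SCA1low populations were thus above the SCA1high populations, with no overlap between libraries. In LY6D- cells SCA1int lay between the other levels, and in LY6D+ cells it overlapped SCA1high.

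**Figure D1:**
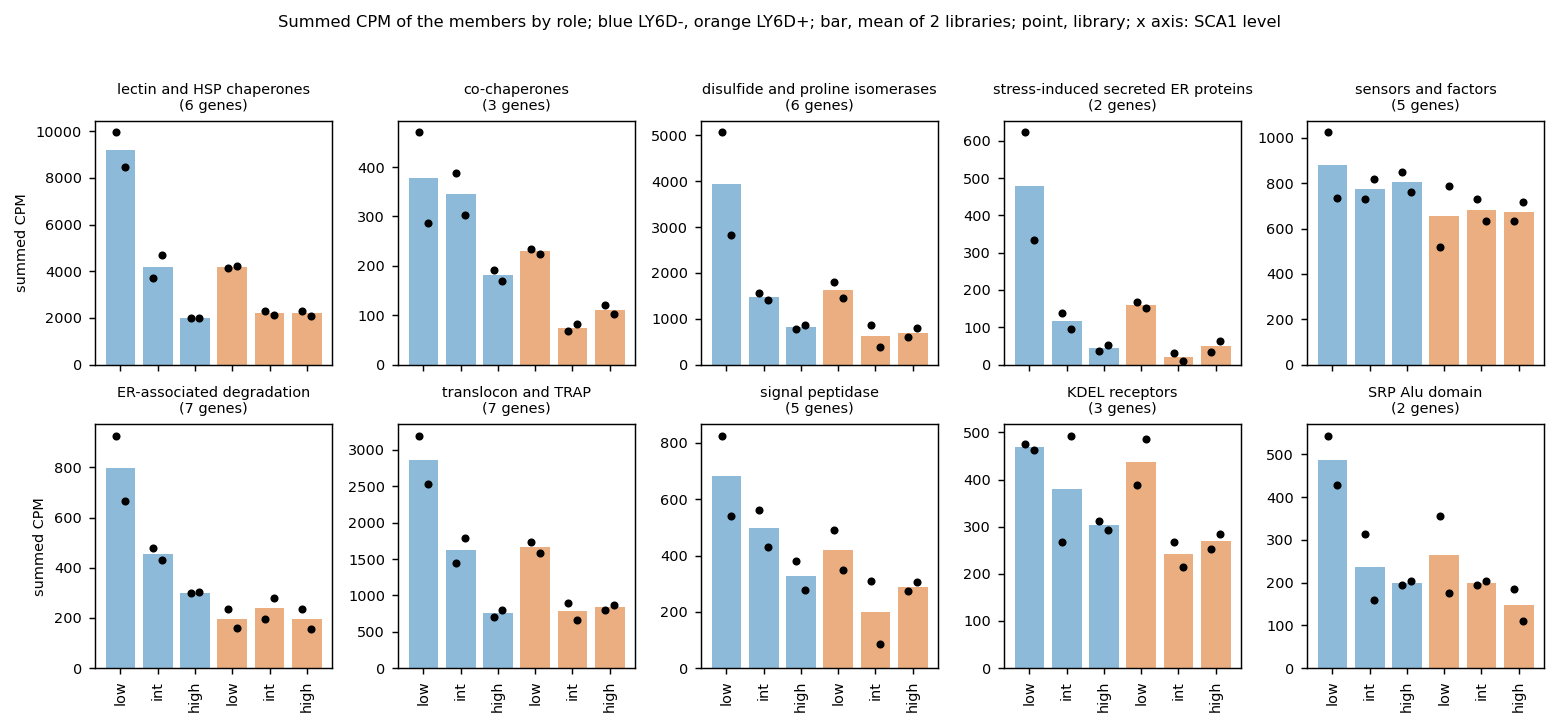
Summed CPM (linear axis from 0, a different scale in each panel) of the listed genes by role, for 6 populations on the x axis; bars are means of 2 libraries and points are libraries. The chaperone mean is 9200.2 CPM in LY6D- SCA1low and 2006 in LY6D- SCA1high cells, and the sensors and factors show means between 653 and 880 CPM in every population. Atf4 makes up most of that sum, with population means of 490 to 605 CPM, so the sum shows little of the other sensors and factors.

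The lectin and heat shock protein chaperones, with the BiP partner SDF2L1, gave 5 calls among 6 genes, with a median log2 fold change of -2.12. Calr encodes calreticulin, a calcium-binding lectin chaperone (chr8:84841850-84846934, - strand). In LY6D+ libraries Calr was read at 1146 and 1058 at SCA1low, 842 and 748 at SCA1int and 287 and 399 at SCA1high CPM. LY6D- libraries gave Calr 3502 and 3124 at SCA1low, 722 and 1156 at SCA1int and 319 and 459 at SCA1high CPM. All 4 SCA1high libraries were below all 4 SCA1low libraries, and the fall ran over both SCA1 steps. The log2 fold change was -2.39 ± 0.24 (SE), 5.23-fold, with an adjusted p of 7.18e-08.

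Hsp90b1 encodes GRP94, the HSP90 of the ER (chr10:86690209-86705509, - strand). LY6D+ libraries gave Hsp90b1 626 and 670.3 at SCA1low, 291 and 140.3 at SCA1int and 239 and 198 at SCA1high CPM. LY6D- libraries gave Hsp90b1 2043 and 1195 at SCA1low, 580.3 and 479 at SCA1int and 153 and 272 at SCA1high CPM. SCA1high and SCA1low libraries did not overlap, and LY6D- SCA1low was the highest population. Its log2 fold change was -2.25 ± 0.31 (adjusted p = 3.46e-05). An annotated pseudogene on the opposite strand and a noncoding gene on the same strand overlap Hsp90b1, and the strand setting of the counting is not given in the sources used here.

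Hspa5 encodes BiP, the ER member of the HSP70 family, which also holds the stress sensors inactive (chr2:34771970-34777547, + strand). LY6D+ libraries gave Hspa5 1808 and 2027 at SCA1low, 842 and 1022 at SCA1int and 1449.9 and 1298 at SCA1high CPM. LY6D- libraries gave Hspa5 3523 and 3528 at SCA1low, 2044 and 2523 at SCA1int and 1269 and 1093 at SCA1high CPM. The SCA1low libraries were all above the SCA1high libraries, but in LY6D+ cells SCA1int was the lowest population. The log2 fold change of -1.03 ± 0.18 (2.04-fold, adjusted p = 8.44e-04) was the smallest of the 13 and had the smallest SE. With library size as the only scaling it was -0.53 and its call was lost (adjusted p = 0.17).

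Sdf2l1 encodes a partner of BiP that keeps its client proteins soluble (chr16:17130138-17132383, - strand). LY6D+ libraries gave Sdf2l1 125 and 35.2 at SCA1low, 4.69 and 0.953 at SCA1int and 0.135 and 0.235 at SCA1high CPM. LY6D- libraries gave Sdf2l1 333 and 47.4 at SCA1low, 63.6 and 56.7 at SCA1int and 0.938 and 13.2 at SCA1high CPM. All SCA1high libraries were below all SCA1low libraries, but the 2 LY6D- SCA1low libraries stood far apart. Its log2 fold change was -6.75 ± 1.15 (adjusted p = 7.45e-04). In LY6D+ SCA1high cells it rested on 3 and 2 counts against 1629 and 453 in LY6D+ SCA1low, a ratio of 494 of SCA1low to SCA1high with a 95% exact counting interval of 211 to 1523, which covers counting error only.

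Hyou1, the ER chaperone that exchanges the nucleotide of BiP (chr9:44379490-44392369, + strand), was at 134 and 239.7 at SCA1low, 90.1 and 31.8 at SCA1int and 72.0 and 86.0 at SCA1high CPM in LY6D+ libraries. LY6D- libraries gave Hyou1 453 and 354 at SCA1low, 111 and 182 at SCA1int and 68.6 and 53.8 at SCA1high CPM. SCA1high and SCA1low libraries did not overlap, and the log2 value was -1.98 ± 0.50 (adjusted p = 0.0382). It was the least firm of the 13 calls: it was lost in 10 of 20 alternatives, among them the fits without LY6D+ SCA1high replicate 1 or 2, LY6D+ SCA1low replicate 2, LY6D- SCA1high replicate 1 or 2, or LY6D- SCA1low replicate 1 (adjusted p 0.0599 to 0.132). Canx, the membrane-bound relative of calreticulin, was not called. Its libraries lay between 98.8 and 291 CPM, with a log2 fold change of -0.18 ± 0.44 (95% interval -1.08 to 0.71, adjusted p = 0.91).

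**Figure D2:**
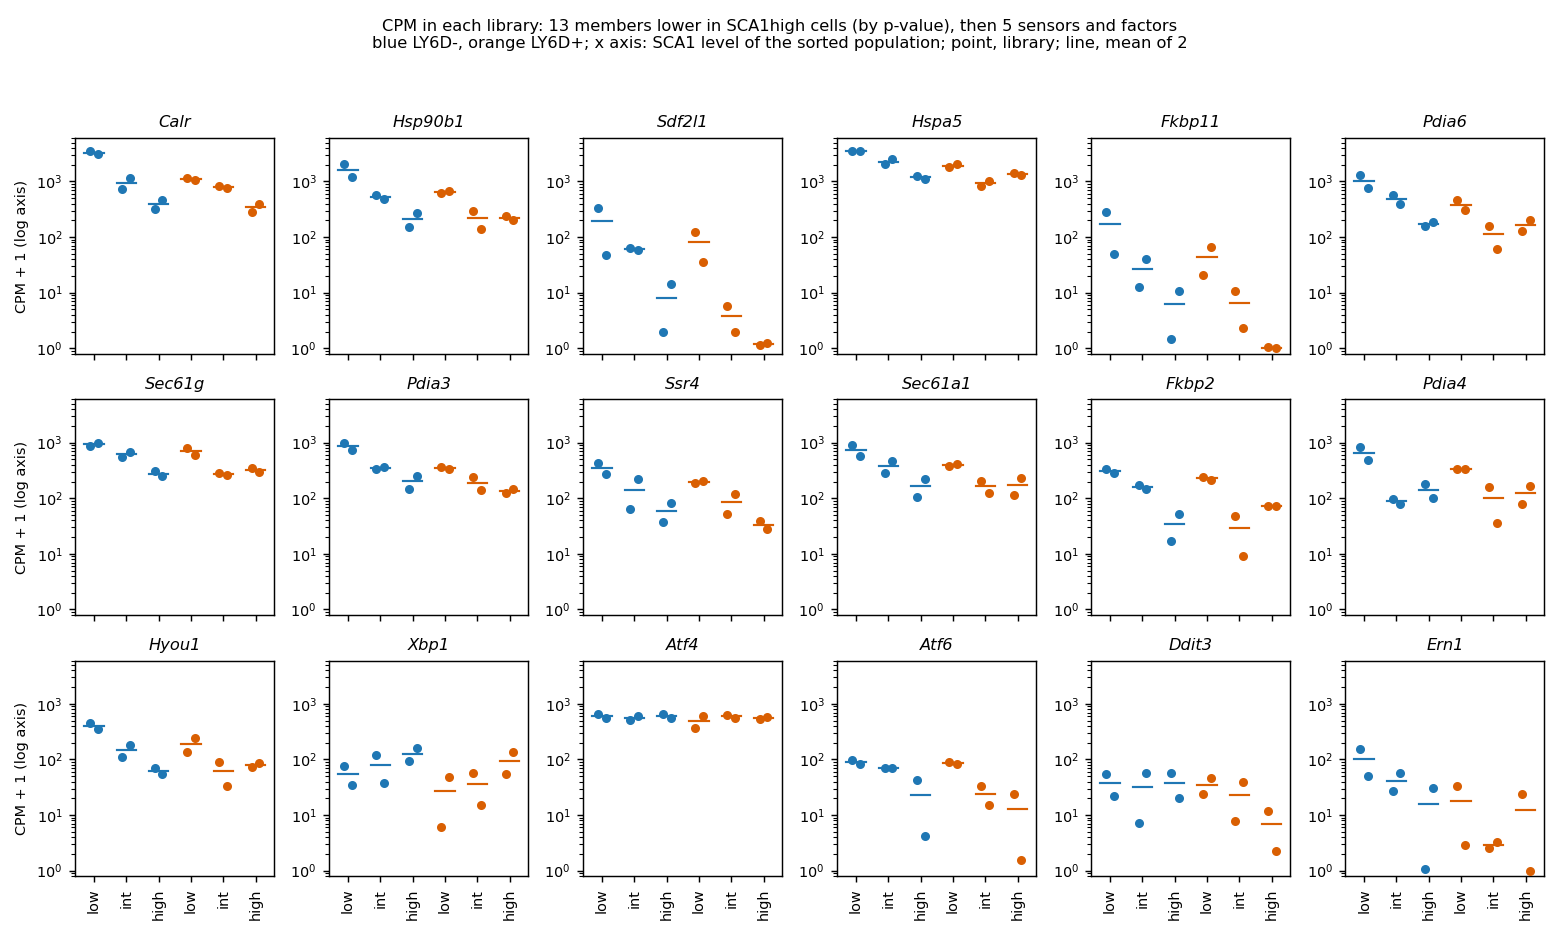
CPM plus 1 (log axis) in each library for the 13 genes called lower in SCA1high cells, ordered by p-value, and for 5 stress sensors and transcription factors; x axis, SCA1 level within LY6D- (blue) and LY6D+ (orange) cells; points are libraries and lines are means of 2. For all 13 the SCA1high libraries lie below the SCA1low libraries, while Atf4 stays between 371 and 663 CPM.

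Promoter sequence was examined because several of these genes are textbook targets of ATF6 and XBP1, which act through the ER stress response element (ERSE): the letters CCAAT, any 9 bases, then CCACG. Sequences are from RefSeq on GRCm38.p6, 250 bases before to 50 after the annotated start, and 37 of the 46 genes had an entry. Both strands were searched for exact matches. Such targets were on the list from the start, so an excess of ERSE over all genes is no independent result. Of the 37, 9 (24.3%) held an ERSE, against 37 of 27025 genes (0.137%): Calr, Canx, Hsp90b1 (2 matches), Hspa5, Pdia6, Dnajc3, Creld2, Syvn1 and Derl3. These windows are shown for 4 genes called lower with SCA1, as the 250 bases before the start, written 5′ to 3′ along the gene with each ERSE in capitals.
Hspa5, chr2:34771840-34772089, + strand: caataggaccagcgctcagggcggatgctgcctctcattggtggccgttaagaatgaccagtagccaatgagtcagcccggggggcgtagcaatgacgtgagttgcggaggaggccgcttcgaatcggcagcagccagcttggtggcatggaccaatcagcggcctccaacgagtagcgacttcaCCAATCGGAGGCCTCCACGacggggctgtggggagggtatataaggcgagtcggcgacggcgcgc
Calr, chr8:84846932-84847181, - strand: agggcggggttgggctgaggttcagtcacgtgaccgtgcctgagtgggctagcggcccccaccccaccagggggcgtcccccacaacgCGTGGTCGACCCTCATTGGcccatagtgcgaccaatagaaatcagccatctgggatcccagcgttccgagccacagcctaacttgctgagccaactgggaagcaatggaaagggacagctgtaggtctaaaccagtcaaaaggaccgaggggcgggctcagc
Hsp90b1, chr10:86705445-86705694, - strand: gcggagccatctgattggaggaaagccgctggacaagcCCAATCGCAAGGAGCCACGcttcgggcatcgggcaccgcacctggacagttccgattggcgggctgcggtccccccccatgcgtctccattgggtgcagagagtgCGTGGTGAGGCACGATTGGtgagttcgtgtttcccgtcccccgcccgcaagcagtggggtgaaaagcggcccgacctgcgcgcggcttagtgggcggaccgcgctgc
Pdia6, chr12:17266339-17266588, + strand: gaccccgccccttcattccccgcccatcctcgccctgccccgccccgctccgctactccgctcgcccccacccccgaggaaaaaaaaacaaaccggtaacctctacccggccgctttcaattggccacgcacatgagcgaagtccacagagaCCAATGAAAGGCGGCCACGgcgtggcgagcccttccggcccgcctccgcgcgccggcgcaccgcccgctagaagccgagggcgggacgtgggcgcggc

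The GENCODE gene models of these 4 genes begin within the printed windows, upstream of the RefSeq start. Counted from the RefSeq start, the match began 65 bases before the start in Hspa5, 162 in Calr, 212 and 107 in Hsp90b1 and 98 in Pdia6. It read as spelled in Hspa5, Pdia6 and the farther match of Hsp90b1, and as the reverse complement in Calr and the nearer match of Hsp90b1. The other 5 genes with an ERSE were not called lower with SCA1. Their matches, in capitals with 10 bases on each side, are printed for comparison, with that of Herpud1, which held the shorter ERSE-II (ATTGG, any 1 base, CCACG).
Canx, chr11:50325790-50325828, - strand: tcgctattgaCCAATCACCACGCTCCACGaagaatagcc
Dnajc3, chr14:118937817-118937855, + strand: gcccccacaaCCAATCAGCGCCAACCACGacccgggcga
Creld2, chr15:88819510-88819548, + strand: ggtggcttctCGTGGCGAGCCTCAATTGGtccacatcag
Syvn1, chr19:6046522-6046560, + strand: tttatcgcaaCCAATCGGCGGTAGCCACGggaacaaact
Derl3, chr10:75893232-75893270, + strand: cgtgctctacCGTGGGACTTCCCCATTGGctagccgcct
Herpud1, chr8:94386367-94386397, + strand: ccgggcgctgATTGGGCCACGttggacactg

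Among genes with a promoter entry, an ERSE was present in 4 of the 11 called lower with SCA1 and in 5 of the 26 others. ERSE-II was found in Herpud1 and Dnajb11 (2 of 37, against 0.0444% of all genes). The XBP1 element TGACGTGG was found in Kdelr3 only (0.714% of all genes), and the ATF4 element TGATGNAAT in 0 of 37 (1.08% of all genes). The CCACG letters alone, which every ERSE and ERSE-II contains, were in 29 of 37 (78.4%, against 35.5% of all genes). A match is a description of these letters in this window, not evidence of binding.

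**Figure D3:**
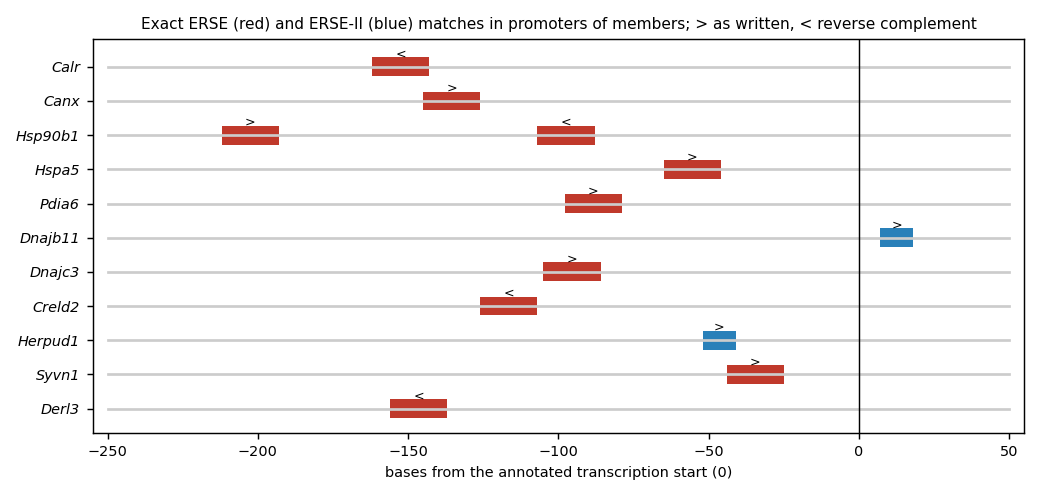
Exact ERSE (red) and ERSE-II (blue) matches along the promoter windows of 11 genes; x axis, bases from the annotated start at 0, from 250 before to 50 after. The 10 ERSE matches begin between 212 and 44 bases before the start, and the ERSE-II match of Dnajb11 begins 7 bases past it.

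Disulfide and proline isomerases, which form and rearrange the bonds that hold secreted proteins in shape, gave 5 calls among 6 genes, with a median log2 fold change of -1.87. Pdia3 encodes ERp57, the disulfide isomerase that works with calreticulin and calnexin (chr2:121413775-121438687, + strand). LY6D+ libraries gave Pdia3 371 and 332 at SCA1low, 244 and 138 at SCA1int and 123 and 148 at SCA1high CPM. LY6D- libraries gave Pdia3 1003 and 745 at SCA1low, 339 and 369 at SCA1int and 145 and 255 at SCA1high CPM. The SCA1high libraries did not overlap the SCA1low libraries (log2 fold change -1.75 ± 0.34, adjusted p = 0.00407).

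Pdia6, another disulfide isomerase (chr12:17266545-17284770, + strand), was at 456 and 301 at SCA1low, 161 and 60.1 at SCA1int and 129.6 and 201 at SCA1high CPM in LY6D+ libraries. LY6D- libraries gave Pdia6 1302 and 751 at SCA1low, 579 and 387 at SCA1int and 155 and 183 at SCA1high CPM. It fell with SCA1 at a log2 fold change of -1.9 ± 0.36 (adjusted p = 0.00307), and its LY6D+ SCA1int libraries overlapped SCA1high. Pdia4, or ERp72 (chr6:47796141-47813430, - strand), was at 330.1 and 337 at SCA1low, 162 and 34.5 at SCA1int and 79.2 and 164 at SCA1high CPM in LY6D+ libraries. LY6D- libraries gave Pdia4 844 and 482 at SCA1low, 97.4 and 79.1 at SCA1int and 183 and 102 at SCA1high CPM. SCA1int overlapped SCA1high in LY6D+ cells and lay below it in LY6D- cells, and the call (-1.84 ± 0.46, adjusted p = 0.0367) was lost without LY6D+ SCA1high replicate 1, LY6D- SCA1high replicate 2 or LY6D- SCA1low replicate 1 (adjusted p 0.0507 to 0.104). Pdia3, Pdia4 and Pdia6 each overlap an annotated gene, those of Pdia3 (Catsper2) and Pdia6 (Atp6v1c2) on the opposite strand.

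Fkbp2 and Fkbp11 encode proline isomerases of the FK506-binding family. Fkbp2 (chr19:6977741-6980501, - strand) was at 241 and 216 at SCA1low, 47.2 and 8.31 at SCA1int and 72.6 and 71.7 at SCA1high CPM in LY6D+ libraries. LY6D- libraries gave Fkbp2 334 and 289.6 at SCA1low, 172 and 144 at SCA1int and 16.3 and 50.8 at SCA1high CPM. The difference of -2.44 ± 0.57 (adjusted p = 0.0206) was not called without LY6D+ SCA1high replicate 1 (adjusted p = 0.0527) or LY6D- SCA1high replicate 1 (0.12). Fkbp11 (chr15:98724366-98728198, - strand) was at 19.7 and 65.9 at SCA1low, 9.60 and 1.27 at SCA1int and 0.045 and 0 at SCA1high CPM in LY6D+ libraries. LY6D- libraries gave Fkbp11 287 and 49.3 at SCA1low, 11.5 and 39.2 at SCA1int and 0.469 and 9.91 at SCA1high CPM. It had the lowest log2 fold change of the 13 (-7.58 ± 1.44, adjusted p = 0.00282), and the call was lost without LY6D- SCA1low replicate 1 (adjusted p = 0.0542).

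In LY6D+ SCA1high cells Fkbp11 had 1 and 0 counts against 257 and 847 in LY6D+ SCA1low, a ratio of SCA1low to SCA1high of 1310.1 with a 95% exact counting interval of 235 to 51792. P4hb, the classical protein disulfide isomerase, was the one isomerase not called. Its log2 fold change was -1.15 ± 0.36 (adjusted p = 0.151), and its LY6D- SCA1low libraries were at 1297 and 507 CPM against 287 and 271 in LY6D- SCA1high.

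Of 7 genes of the import channel and the TRAP complex that aids it, 3 were called lower, with a median log2 fold change of -1.45. Sec61a1 encodes the pore-forming subunit (chr6:88503579-88518905, - strand) and was at 379 and 413 at SCA1low, 207 and 124 at SCA1int and 116 and 234 at SCA1high CPM in LY6D+ libraries. LY6D- libraries gave Sec61a1 907 and 577 at SCA1low, 279 and 467 at SCA1int and 105 and 220.1 at SCA1high CPM. The groups did not overlap (log2 fold change -1.69 ± 0.38, adjusted p = 0.0139), but the call was lost without LY6D+ SCA1high replicate 1 (adjusted p = 0.0699). Sec61g encodes the gamma subunit (chr11:16500530-16508484, - strand) and was at 815 and 607 at SCA1low, 289 and 266 at SCA1int and 345 and 299 at SCA1high CPM in LY6D+ libraries. LY6D- libraries gave Sec61g 873 and 991 at SCA1low, 554 and 676 at SCA1int and 306 and 249.9 at SCA1high CPM. SCA1high and SCA1low libraries did not overlap, and the log2 fold change was -1.45 ± 0.28 (adjusted p = 0.00342).

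Ssr4 encodes the delta subunit of TRAP (chrX:73787028-73790830, + strand) and was at 188 and 202 at SCA1low, 50.8 and 118 at SCA1int and 37.6 and 27.5 at SCA1high CPM in LY6D+ libraries. LY6D- libraries gave Ssr4 438 and 270.4 at SCA1low, 63.2 and 221 at SCA1int and 37.0 and 81.3 at SCA1high CPM. It fell by 2.58 on the log2 scale (SE 0.55, adjusted p = 0.00823), with all 4 SCA1high libraries below all 4 SCA1low libraries, and the values within single LY6D states were not called. The remaining subunits gave -1.62 ± 0.47 for Sec61b (adjusted p = 0.114), -1.33 ± 0.72 for Ssr1, -0.49 ± 0.75 for Ssr3 and 0.07 ± 0.68 for Ssr2, and none was called. The subunits thus had log2 fold changes from -2.58 to 0.07, and the differences between them were not tested.

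Of the 5 transcription factors and sensors that set the response, 0 were called in either averaged comparison. With SCA1, 3 of them (Atf6, Ern1 and Ddit3) had negative log2 fold changes like the chaperones, and Atf4 and Xbp1 did not. Whether they differ as a group from the chaperones was not tested. Atf4, the factor of the PERK branch, was at 371 and 609 at SCA1low, 635 and 565 at SCA1int and 524 and 581 at SCA1high CPM in LY6D+ libraries. LY6D- libraries gave Atf4 647 and 552 at SCA1low, 511 and 601 at SCA1int and 663 and 547 at SCA1high CPM. Its levels overlapped in all 6 populations, and the log2 fold change with SCA1 was 0.09 ± 0.27 with a 95% interval of -0.46 to 0.65. Over the alternatives it lay between -0.19 and 0.59, on both sides of 0.

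Xbp1, which IRE1 splices into an active factor, was at 5.21 and 47.8 at SCA1low, 56.4 and 14.4 at SCA1int and 52.8 and 133 at SCA1high CPM in LY6D+ libraries. LY6D- libraries gave Xbp1 75.1 and 34.0 at SCA1low, 119 and 36.4 at SCA1int and 91.1 and 161 at SCA1high CPM. Its log2 fold change was positive, 1.51 ± 0.80 (95% interval -0.14 to 3.15), in the opposite direction to the chaperones, but it was not called (adjusted p = 0.451) and the SCA1high and SCA1low libraries overlapped. Tags from the 3' end do not tell spliced from unspliced Xbp1. Atf6, the membrane-bound factor, was at 88.2 and 83.5 at SCA1low, 32.4 and 14.2 at SCA1int and 23.1 and 0.588 at SCA1high CPM in LY6D+ libraries. LY6D- libraries gave Atf6 97.4 and 81.3 at SCA1low, 69.6 and 70.5 at SCA1int and 41.4 and 3.26 at SCA1high CPM. Here the SCA1high libraries were all below the SCA1low libraries, yet their spread was wide and the log2 fold change of -2.43 ± 1.0 was not called (adjusted p = 0.341). DESeq2 called it (-2.74, adjusted p = 0.0455), as did edgeR without LY6D+ SCA1high replicate 1 (-4.58, adjusted p = 0.0486).

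Ddit3, which encodes the stress factor CHOP, was at 22.6 and 45.6 at SCA1low, 6.85 and 38.1 at SCA1int and 10.7 and 1.29 at SCA1high CPM in LY6D+ libraries. LY6D- libraries gave Ddit3 52.8 and 20.7 at SCA1low, 6.33 and 56.6 at SCA1int and 55.1 and 19 at SCA1high CPM. Ern1, which encodes IRE1, was at 31.9 and 1.87 at SCA1low, 1.56 and 2.22 at SCA1int and 22.6 and 0 at SCA1high CPM in LY6D+ libraries. LY6D- libraries gave Ern1 152 and 48.6 at SCA1low, 25.7 and 55.4 at SCA1int and 0.0782 and 29.6 at SCA1high CPM. Replicates of both genes lay far apart in several populations, and their log2 fold changes of -1.25 ± 1.2 (adjusted p = 0.703) and -1.66 ± 1.42 (adjusted p = 0.652) had intervals from -3.71 to 1.22 and from -4.57 to 1.24. Ddit3 also overlaps Mars and Gm4189 on the opposite strand, and another annotated protein-coding entry named Ddit3 on its own strand.

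The remaining roles gave 0 calls with SCA1. The 7 genes of ER-associated degradation (Herpud1, Edem1, Sel1l, Syvn1, Derl1, Derl2 and Derl3) had log2 fold changes from -1.32 for Edem1 to -0.06 for Derl2, with a median of -0.55. The co-chaperones of BiP (Dnajb9, Dnajb11 and Dnajc3) ran from -1.49 to -0.47. Manf and Creld2, secreted ER proteins induced by stress, had -2.78 ± 0.86 (adjusted p = 0.153) and -2.66 ± 0.99 (adjusted p = 0.284). Signal peptidase (Spcs1, Spcs2, Spcs3, Sec11a and Sec11c) ran from -1.63 for Sec11c to 0.04 for Sec11a. The KDEL receptor genes Kdelr1 and Kdelr2 had -0.64 ± 0.35 and -0.81 ± 0.77, and the signal recognition particle genes Srp9 and Srp14 had -1.9 ± 0.68 and -0.53 ± 0.48. These intervals are wide, so a miss of the threshold does not show that the genes were level.

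Counted without a model, 17 of 45 genes had all 4 SCA1high libraries below all 4 SCA1low libraries, where 2.65% of all genes did (405). They were the 13 called genes and Manf, Atf6, Sec61b and Kdelr1. By medians the called genes were more abundant and had smaller errors. Their mean level was 41.2 to 1869 CPM (median 336) with a median SE of 0.38, against 14.3 to 567 CPM (median 69.8) and 0.77 for the 32 not called. A replicate pair more than 8-fold apart was seen for 0 of the 13 called and 13 of the 32 others, and for 69.0% of all tested genes, on CPM plus 1. The shares of all genes given here and above were not matched for such spread or for abundance. Sdf2l1 and Fkbp11 were exceptions among the called: their SEs were 1.15 and 1.44, and their median replicate gaps, 1.67 log2 units for Sdf2l1 and wider for Fkbp11, exceeded the 1.04 of the genes not called. For both, the added 1 narrows the gap between the LY6D- SCA1high replicates printed above.

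**Figure D4:**
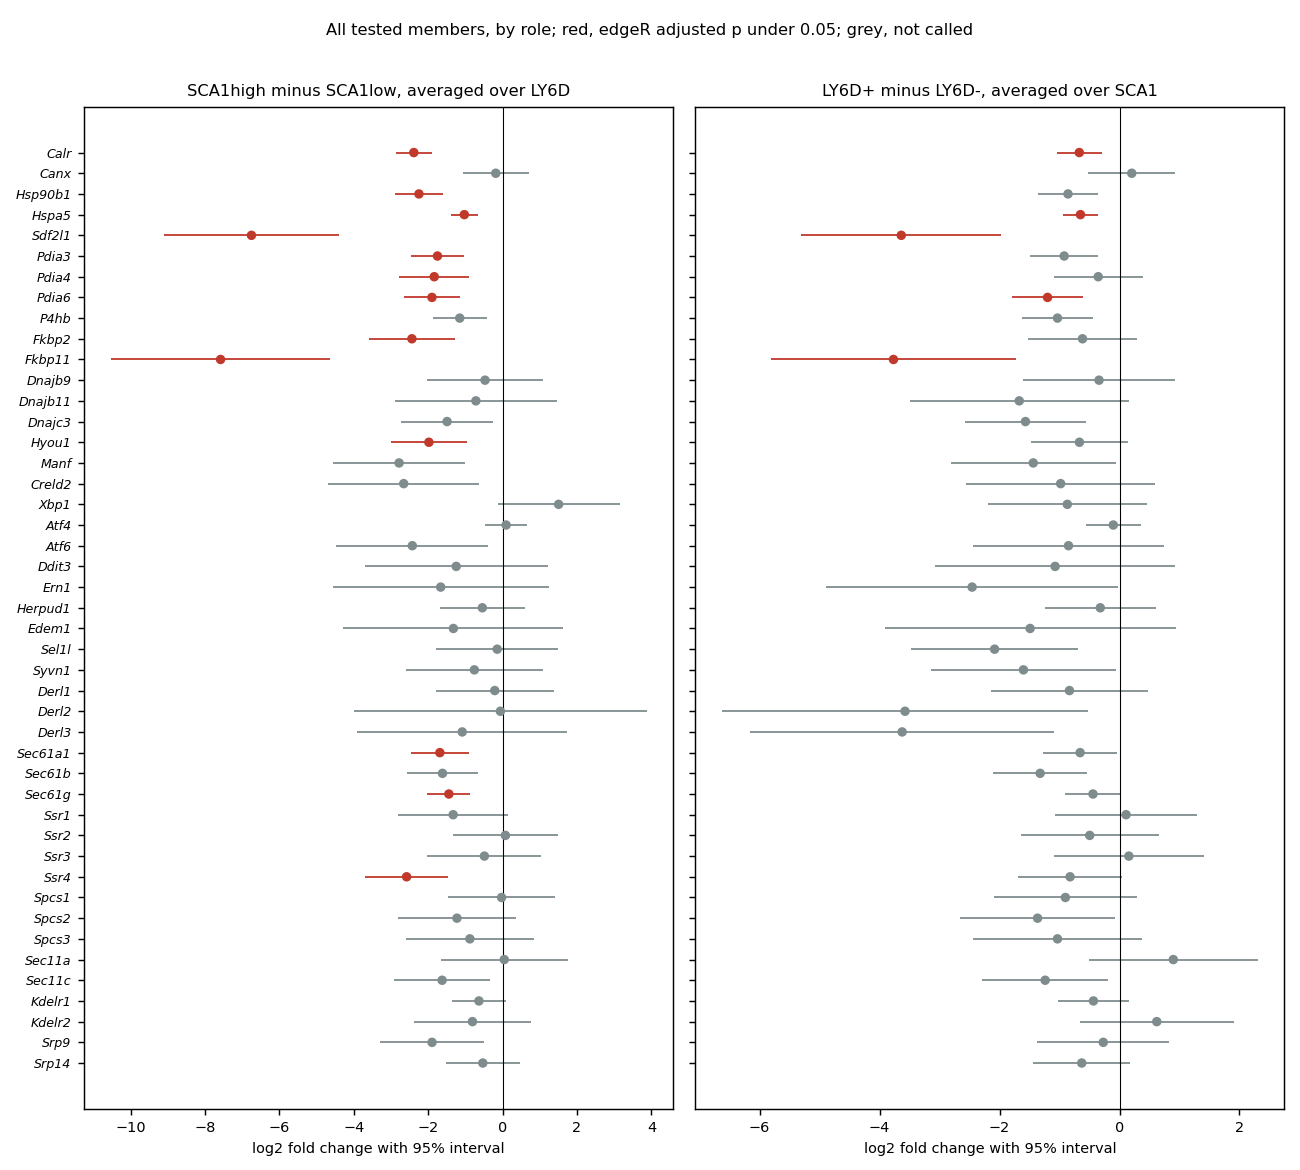
Log2 fold changes with 95% intervals (x axis) of the 45 tested genes, ordered by role, for SCA1high against SCA1low (left) and LY6D+ against LY6D- (right); red marks an adjusted p under 0.05. On the left 41 of 45 values are negative, the lowest that of Fkbp11 at -7.58; on the right 40 are negative.

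Split into its steps, more genes passed the test between SCA1low and SCA1int. From SCA1low to SCA1int, 4 genes were lower (Calr -1.14 ± 0.23, Hsp90b1 -1.60 ± 0.31, Hspa5 -0.83 ± 0.18 and Pdia4 -2.34 ± 0.46; adjusted p 0.00703 to 0.0203), where 0.255% of all genes were (39). The median was -0.99 against 0.21 for all genes. From SCA1int to SCA1high only Calr was lower (-1.24 ± 0.23, adjusted p = 0.00857), where 0.124% of all genes were (19), and the median was -0.44 against -0.10. The 2 steps share the SCA1int libraries, and the difference between them was not tested. The count of the lower step was 8 without LY6D+ SCA1high replicate 2, 8 without LY6D- SCA1low replicate 2, 7 without LY6D+ SCA1int replicate 1 or LY6D+ SCA1low replicate 2, and 2 without LY6D- SCA1int replicate 1, where Calr and Hspa5 were lost. That of the upper step was 3 without LY6D+ SCA1int replicate 2 or LY6D- SCA1high replicate 2, which added Sdf2l1 and Fkbp11, and 2 without LY6D+ SCA1high replicate 1, LY6D+ SCA1low replicate 1 or LY6D- SCA1low replicate 2.

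Within LY6D- cells 6 genes were lower in SCA1high than in SCA1low (Calr -3.09 ± 0.34, Hsp90b1 -2.93 ± 0.45, Hspa5 -1.58 ± 0.25, Pdia3 -2.13 ± 0.49, Pdia6 -2.60 ± 0.53 and Sec61g -1.75 ± 0.40; adjusted p 2.43e-06 to 0.0334), where 0.393% of all genes were (60). The median of the 45 was -1.89 against 0.53. DESeq2 called 15. Leaving out 1 library raised the count to 12 (LY6D+ SCA1high replicate 2), 11 (either LY6D+ SCA1int library or LY6D+ SCA1low replicate 1) or 10 (LY6D- SCA1low replicate 2), and it was 10 without both doubted libraries. Pdia3 and Sec61g lost their calls without either LY6D- SCA1high library, Pdia3 also without LY6D- SCA1low replicate 1, and Sec61g without LY6D- SCA1low replicate 2. Within LY6D+ cells 3 were lower: Calr (-1.68 ± 0.32, adjusted p = 0.00796), Sdf2l1 (-8.76 ± 1.78, adjusted p = 0.0139) and Fkbp11 (-10.15 ± 2.29, adjusted p = 0.0406). There 0.288% of all genes were lower (44), and the median was -0.87 against -0.17. The last 2 of these values rest on 5 counts and 1 count in SCA1high cells, so their size depends on the prior count of the fit. Without LY6D+ SCA1high replicate 1 none of the 3 was called, and Manf and Spcs2 were. That fit leaves LY6D+ SCA1high with the doubted replicate 2 alone, assumed to vary like the other groups, where Manf had 5 and Spcs2 had 3 counts. Fkbp11 also lost its call without LY6D+ SCA1high replicate 2 or LY6D- SCA1low replicate 1. Calr was the only gene called in both states.

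Whether the SCA1 difference itself differed between LY6D states was tested as an interaction. None of the 45 genes passed (edgeR, 8 at an unadjusted p under 0.05, 0 by DESeq2), where 0.0393% of all genes did (6). Calr, Hsp90b1 and Hspa5 had interaction values of 1.40 ± 0.45, 1.36 ± 0.60 and 1.10 ± 0.35 log2 units, from more negative fold changes in LY6D- than in LY6D+ cells, each with an adjusted p of 0.65. Sdf2l1 and Fkbp11 had -4.01 ± 1.9 and -5.14 ± 2.40, the other way. Degradation genes had a median log2 fold change of -2.04 in LY6D- cells, with 7 of 7 negative, and 1.15 in LY6D+ cells, with 3 of 7 negative. The LY6D+ values rest in part on 1 library: in LY6D+ SCA1high replicates 1 and 2 there were 306 and 0 counts of Derl2 and 317 and 0 of Derl3, the gene at the median. Without LY6D+ SCA1high replicate 1 the interaction of Spcs2, a signal peptidase gene, was called, on the 3 counts of the remaining library.

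**Figure D5:**
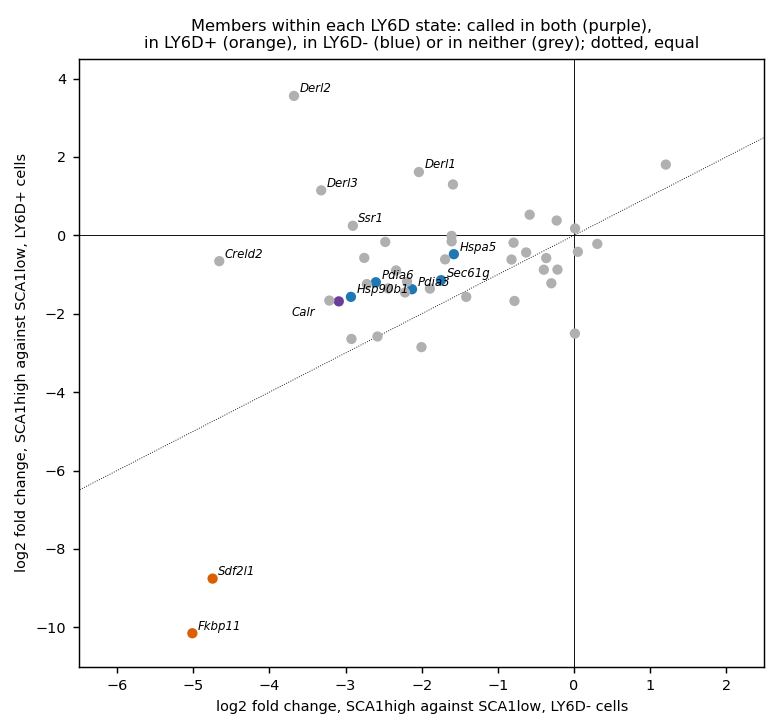
Log2 fold changes of SCA1high against SCA1low in LY6D- cells (x axis) and in LY6D+ cells (y axis), 1 point per tested gene; the dotted line marks equal values and colour marks where a gene was called. Of 45 values 40 are negative in LY6D- and 36 in LY6D+ cells, with Sdf2l1 and Fkbp11 at -8.76 and -10.15 in LY6D+ cells.

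The comparison by LY6D gave fewer calls. Averaged over SCA1, 5 of 45 were lower in LY6D+ than in LY6D- cells and 0 higher, where 1.21% of all genes were lower (185) and 1.27% higher (194). They were Hspa5 (-0.65 ± 0.14, 1.57-fold, adjusted p = 0.0106), Sdf2l1 (-3.64 ± 0.81, adjusted p = 0.0117), Pdia6 (-1.2 ± 0.29, 2.30-fold, adjusted p = 0.0207), Fkbp11 (-3.77 ± 1.0, adjusted p = 0.0381) and Calr (-0.67 ± 0.18, 1.59-fold, adjusted p = 0.046). Of the 45, 40 had a negative value and the median was -0.86, against 0.03 for all genes. At an unadjusted p under 0.05 there were 19, and DESeq2 called 8, of which 3 were shared. For 0 of 45 did the 6 LY6D+ libraries lie wholly below the 6 LY6D- libraries, where 0.57% of all genes did (87). At so small a share, 0 of 45 does not set the ER genes apart from all genes.

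The count was 11 without LY6D+ SCA1high replicate 1 or LY6D- SCA1low replicate 2, 10 without LY6D+ SCA1low replicate 1, 9 without LY6D+ SCA1high replicate 2, LY6D+ SCA1int replicate 1 or LY6D- SCA1high replicate 1, 9 without both doubted libraries, and 3 without LY6D- SCA1low replicate 1. Calr and Fkbp11 each lost their call in 7 of 20 alternatives, both of them without LY6D- SCA1high replicate 2 or LY6D- SCA1int replicate 2. Calr was also lost without LY6D+ SCA1high replicate 1 or LY6D+ SCA1low replicate 2, Fkbp11 without LY6D+ SCA1int replicate 2 or LY6D- SCA1low replicate 1, Sdf2l1 without LY6D- SCA1low replicate 1 and Pdia6 without LY6D- SCA1int replicate 1. Hsp90b1 (-0.86 ± 0.25, adjusted p = 0.0589) and P4hb (-1.03 ± 0.29, adjusted p = 0.0514) lay just above the threshold, and Hsp90b1 was called in 12 of 20 alternatives. Degradation genes had a median of -1.60 with 7 of 7 negative and 0 called. The factors Atf4 and Xbp1 had -0.10 ± 0.22 and -0.87 ± 0.64.

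At single SCA1 levels little passed the test. In SCA1low cells Calr alone was lower in LY6D+ (-1.59 ± 0.32, adjusted p = 0.0121), where 0.0917% of all genes were (14), and DESeq2 called 6. Calr was not called there without LY6D+ SCA1low replicate 2. Single left-out libraries added 1 gene in 6 other fits: Hspa5 without either LY6D+ SCA1int library, LY6D- SCA1high replicate 1 or LY6D- SCA1low replicate 1, Sel1l without LY6D+ SCA1low replicate 1, and P4hb without LY6D- SCA1low replicate 2. In SCA1int cells Hspa5 alone was lower (-1.29 ± 0.25, adjusted p = 0.0154), where 0.183% of all genes were (28). It was not called without LY6D- SCA1int replicate 2, and Pdia6 joined it without any 1 of 8 other libraries. In SCA1high cells 0 were called (edgeR, 2 at an unadjusted p under 0.05, 2 by DESeq2: Sdf2l1 and Fkbp11), where 0.262% of all genes were called in either direction (40). There Fkbp11 was called without LY6D+ SCA1low replicate 1, LY6D- SCA1high replicate 1 or LY6D- SCA1low replicate 2, Sdf2l1 without LY6D+ SCA1low replicate 2 or LY6D- SCA1low replicate 2, and Spcs2 without LY6D+ SCA1high replicate 1.

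Other genes of the same pathways were counted from 7 further lists. In the SCA1 comparison 0 of 12 genes of oligosaccharyltransferase, which adds sugar chains to entering proteins, were called (11 negative, median -0.89). There were also 0 calls among 11 other translocation genes (8 negative, median -0.65), 18 other degradation genes (12 negative, median -0.88), 26 genes of COPII and COPI vesicles and cargo receptors (23 negative, median -0.79) and 7 relatives of ATF6 and IRE1 (6 negative, median -1.40). The 23 genes of the PERK and ATF4 branch gave 0 calls and a median of 0.01 (11 negative), next to 0.15 for all genes. Of all genes 0.779% were called lower, so 0 calls in lists this short do not set them apart from all genes. Of 21 further folding genes 14 were negative (median -0.75), and Dnajc10, a co-chaperone with disulfide reductase activity, was called. Dnajc10 stood at 1233 ± 62.0 CPM (mean ± SD, n = 2 libraries) in LY6D- SCA1low and 98.4 ± 38.3 in LY6D- SCA1high cells. In LY6D+ cells it was 567 ± 16.9 and 55 ± 13.2 CPM, and the log2 fold change was -3.51 ± 0.34 (adjusted p = 7.18e-08). By LY6D, Dnajc10 was lower in LY6D+ cells (-1.40 ± 0.26, adjusted p = 0.00189) and Atf3, a stress factor downstream of ATF4, was higher (1.0 ± 0.22, adjusted p = 0.00934).

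Markers of cell types moved with both comparisons, and their part in these results was not tested. Of 10 secretory luminal markers (such as Pbsn, Sbp and Msmb), 7 were lower in SCA1high cells and 6 in LY6D+ cells, in the same direction as the ER genes. Their summed level was 1501 to 5049 CPM over the SCA1high libraries, 2127 to 40348 over SCA1int and 19577 to 103097 over SCA1low, with 1 of the 10 at 0 in 1 library (LY6D+ SCA1high replicate 2). Of 6 tested seminal vesicle markers 4 were lower in SCA1high cells. Their sum was 279.5 to 757 CPM over SCA1high and 487 to 17904 over SCA1low libraries, and 0 to 3 of 8 were at 0 in a library. Of 8 basal markers 3 were higher in SCA1high and 7 in LY6D+ cells, and of 8 proximal luminal markers 3 were higher in SCA1high and 1 (Lcn2) in LY6D+ cells. By LY6D, 5 of the 8 proximal luminal markers had negative log2 fold changes (median -0.89), and 0 were called lower.

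Endothelial markers (10 genes, among them Pecam1 and Kdr) summed to 3138 to 3568 CPM in LY6D- SCA1high, 943 to 1174 in LY6D- SCA1int, 221 to 614 in LY6D- SCA1low and 27.2 to 283 in LY6D+ libraries. Of them 4 were higher in SCA1high and 7 lower in LY6D+ cells, although the sort had removed CD31-positive cells, and 0 or 1 of 10 was at 0 in each library. Plasma cells, whose large ER makes them rich in these genes, were looked for by 10 markers: Mzb1, Tnfrsf17, Ighm and Iglc1 were at 0 in every library. Igkc was at 0.127 to 2.70 CPM, Prdm1 reached 26.5 (LY6D- SCA1int replicate 1), Jchain 9.88 (the same library) and Cd79a 18.7 (LY6D+ SCA1int replicate 1), and Irf4 was above 0 in 1 library only. Sdc1, which epithelium also expresses, was higher in LY6D+ cells. The list summed to 57.1 to 787 CPM over SCA1high and 8.28 to 665 over SCA1low libraries. Sdc1 made up most of these sums, at 38.9 to 785 CPM over SCA1high and 6.13 to 663 over SCA1low libraries. Of 5 tested leukocyte markers 3 had negative log2 fold changes with SCA1 (median -0.26), and only Cd52 was called lower in SCA1high cells. The 10 listed markers summed to 12.4 to 50.8 CPM over SCA1high and 20.3 to 217 over SCA1low libraries. Cd52 made up most of the SCA1low sums, at 15.4 to 204 CPM. Cd3e was at 0 throughout, and 2 to 7 of 10 were at 0 in a library. Fibroblast and smooth muscle markers summed to 470.3 to 1269 CPM over SCA1high and 244 to 881 over SCA1low libraries, with 0 to 4 of 10 at 0 in a library, 0 called with SCA1 and Dcn higher in LY6D+ cells. With SCA1 their median log2 fold change was 2.87, with 1 of 9 negative, which the sums show little of because Dcn alone reached 641 and 857 CPM in LY6D+ SCA1high cells. Erythroid markers summed to 4.07 to 828 CPM and split replicates: 828 and 7.36 in LY6D- SCA1low replicates 1 and 2, and 4.86 and 431 in LY6D+ SCA1high replicates 1 and 2. LY6D- SCA1low replicate 1 was also the library with the highest summed ER genes (23097 CPM).

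Scaling mattered for the SCA1 comparison. TMM factors were 1.01 to 1.29 in SCA1high, 0.977 to 1.13 in SCA1int and 0.749 to 0.970 in SCA1low libraries. The median log2 fold change of all genes was 0.15 with them, -0.12 with RLE factors and 0.63 with library size alone. That of the ER genes was -1.25, -1.58 and -0.65, and 41, 44 and 34 of 45 were negative. Relative to all genes the median stood at -1.40, -1.47 and -1.29. With library size alone 6 of the 13 kept their call: Calr, Hsp90b1, Sdf2l1, Pdia3, Pdia6 and Fkbp11.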

How the data were processed

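Mouse prostate cells sorted as luminal, 6 populations with 2 libraries each, were profiled by 3' tag sequencing. Per the submitters' processing notes, reads were handled with STAR 2.5.1, cutadapt 1.9.1, Picard 1.96 and SAMtools 1.3.1 on mm10, and featureCounts of the Subread package and edgeR are also named. No source used here gives the strand setting or annotation behind the counts. The authors deposited a table of whole-number counts per Ensembl gene, which the main tests use. The authors also deposited a table of normalized signal values per gene, used in 1 alternative as log2(value + 1).

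Counts were fitted with edgeR 4.0.16 (R 4.3.3): TMM scaling, a filter on low counts by population, 1 mean per population over all 12 libraries (6 residual degrees of freedom), quasi-likelihood tests of contrasts, and Benjamini-Hochberg adjustment over 15270 genes, with calls under 0.05. CPM use effective library sizes, and intervals cover 95%. The pipeline was tested on simulated data in the averaged SCA1 comparison. Of 50 genes each set at log2 fold changes of -3 and -2, 11 and 5 were called. Of 50 each set at 3 and 2, 29 and 12 were called, and of 15070 unchanged genes 4 were. Many true differences were thus missed there, above all among genes set lower. Depth was 8436185 to 20022077 counts per library, and 3 counts were taken as the floor. Counting intervals cover counting error only, since the tags are PCR products.

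Coordinates are GENCODE M21 on GRCm38. Promoters are RefSeq GRCm38.p6. The members and lists were chosen with earlier results of these data known. Full values are given for members called in an averaged comparison (at most 14, by p) and for Xbp1, Atf4, Ddit3, Atf6 and Ern1. Of other lists, called genes are named. Alternatives were RLE factors, library size only, no filter, DESeq2 1.42.0, a replicate block, limma-trend (limma 3.58.1), a test against a 1.5-fold change and each library left out. Leaving out both doubted libraries was chosen after seeing the data.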

Additional observations from a re-analysis of the deposited data

How the results depend on the processing

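Of the 13 genes called lower in SCA1high than in SCA1low cells, Calr, Hsp90b1, Sdf2l1, Pdia3 and Pdia6 kept their call in all 20 alternatives, and no named gene's called value changed sign. The cause of the changes below was not tested. With library size only, the count was 6 in the averaged SCA1 comparison, 1 within LY6D+ cells and 2 for SCA1int against SCA1low. With RLE factors it was 12 within LY6D- cells, 9 for LY6D averaged, 0 for LY6D at SCA1int and 2 at SCA1low. With no filter it was 10 within LY6D- cells, 8 for LY6D averaged and 2 each at SCA1int and SCA1low. DESeq2 gave 15 within LY6D- cells, 2 for SCA1high against SCA1int, 8 for SCA1int against SCA1low, 8 for LY6D averaged, and 2, 2 and 6 for LY6D at SCA1high, SCA1int and SCA1low. Limma-trend gave 1 within LY6D+ cells, 2 for SCA1int against SCA1low, 1 for LY6D averaged and 0 for LY6D at SCA1int. Against a 1.5-fold change there were 7 in the averaged SCA1 comparison, 1 within LY6D+ cells, 1 for LY6D averaged and 0 in each of SCA1high against SCA1int, SCA1int against SCA1low, and LY6D at SCA1int and at SCA1low. Without both doubted libraries the counts were 10 within LY6D- cells, 7 for SCA1int against SCA1low, 9 for LY6D averaged and 2 each for LY6D at SCA1int and SCA1low.

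Leaving out 1 library gave 10 to 17 in the averaged SCA1 comparison, 2 to 4 within LY6D+ and 4 to 12 within LY6D- cells, 1 to 3 for SCA1high against SCA1int, 2 to 8 for SCA1int against SCA1low, 3 to 11 for LY6D averaged, 0 to 2 for LY6D at each SCA1 level and 0 to 1 for the interaction. Each such fit leaves 1 population with a lone library, assumed to vary like the others. With the replicate number as a block, the count was 13 for SCA1, 8 for LY6D averaged and 2 for LY6D at SCA1int. Libraries that share a number did not deviate together (correlations -0.28 to 0.21, median 0.01, over 15 pairs), so the number was not taken as a pairing. The sample descriptions carry 1 prefix for every replicate 1 and another for every replicate 2 and do not say what it marks, so a shared batch or day is possible. Across whole profiles, a separate check, the best match in another population had the same number for 6 of 12 libraries. Each library has as many candidates there with its number as without it. Depth limits the genes with few counts: Sdf2l1 and Fkbp11 had 5 counts and 1 count in LY6D+ SCA1high cells.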
